A study of Mus musculus with 8 samples.

Results

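The 10 genes described here encode proteins of the transforming growth factor beta (TGF-beta) pathway. They are the ligands Tgfb1, Tgfb2 and Tgfb3, the latency protein Ltbp1 and the receptors Tgfbr1, Tgfbr2 and Tgfbr3. The others are the signal carrier Smad3 and the inhibitory Smads Smad6 and Smad7. The 10 genes were chosen by name, as core genes of the pathway, from 47434 genes. All 10 were among the 15840 genes with enough counts to be tested. Poly-A RNA was sequenced from the mouse hepatoma line Hepa 1-6, in 4 libraries of cells with a G9a knockout (G9a KO) and 4 libraries of wild-type cells (WT), and no treatment is given for either group. G9a, encoded by Ehmt2, methylates lysine 9 of histone H3. The labels name neither the clone nor the edit, and do not say whether libraries came from separate cultures. The p-values therefore reflect how far these libraries spread, and part of that may be technical.

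TGF-beta ligands are secreted in a latent form, held by their own propeptide and tied to the matrix by latency proteins such as Ltbp1. Released ligand is bound by the receptor kinase Tgfbr2, which recruits and activates Tgfbr1, while Tgfbr3 (betaglycan) is a coreceptor that presents ligand and is needed most for the binding of Tgfb2. Tgfbr1 phosphorylates Smad2 and Smad3, which enter the nucleus with Smad4, and Smad6 and Smad7 are inhibitory Smads that pathway activity itself induces. In liver the pathway is best known for driving matrix production by stellate cells and for restraining the growth of hepatocytes.

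Library totals lay between 58256100 and 75025236 counts. Ehmt2 was measured at 116.7, 116.7, 119.8 and 118.8 CPM (TMM-normalized counts scaled to 1e6 per library) in G9a KO libraries, against 345.4, 307.1, 297.6 and 306.6 CPM in WT libraries. The groups did not overlap, with a log2 fold change of -1.41 ± 0.05 (SE; 4 libraries per group, edgeR, Benjamini-Hochberg adjusted p = 3.82e-10). Without exon counts, the edit itself was not visible. Of 10 hepatocyte markers, 1 had enough counts to be tested, and the sum of the list was 0.673 to 1.49 CPM in G9a KO libraries and 0.696 to 1.52 CPM in WT libraries. Alb, Ttr, Serpina1a, Tat, Cyp3a11 and Fgb are listed at 0 in every library. Itgb1, an integrin chain of nearly all adherent cells, named after its values were seen, is listed at 0 too, so a listed 0 does not show that a gene is silent. Afp, a marker of fetal liver and hepatoma named after its values were seen, averaged 133 ± 11.9 CPM in G9a KO and 5.77 ± 0.57 CPM in WT libraries (SD, n = 4 each). It was the only gene tested of 4 listed markers of hepatoma and fetal liver. Of the others, 2 had too few counts and Gpc3 is listed at 0.

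Sequence upstream of the genes was read from a RefSeq table of promoters (GRCm38.p6), in which 7 of the 10 genes had 9 windows. Tgfb3, Tgfbr3 and Smad7 were not matched. Shown are the 250 bases before the start of both annotated promoters of Ltbp1, of the main promoter of Tgfbr1 and of the promoter of Tgfbr2. For Ltbp1, counts from the downstream start were higher in G9a KO, and those from the upstream start showed no clear change. A difference in start use was not shown. Tgfbr1 and Tgfbr2 are the receptor pair whose RNA levels moved in opposite directions. Letters run 5′ to 3′ on the strand of the gene. Capitals mark matches, on either strand, to any of 5 motifs: a Smad-binding element (GTCTAGAC), an AP-1 site (TGANTCA), a cAMP response element (TGACGTCA), a TATA box (TATAAA) and a GC box (GGGCGG).
Ltbp1, upstream start, chr17:75005279-75005528, plus strand: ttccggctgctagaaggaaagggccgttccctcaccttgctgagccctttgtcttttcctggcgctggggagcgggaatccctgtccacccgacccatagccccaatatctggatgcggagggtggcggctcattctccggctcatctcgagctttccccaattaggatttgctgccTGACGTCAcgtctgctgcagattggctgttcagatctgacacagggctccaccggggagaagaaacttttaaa
Ltbp1, downstream start, chr17:75178531-75178780, plus strand: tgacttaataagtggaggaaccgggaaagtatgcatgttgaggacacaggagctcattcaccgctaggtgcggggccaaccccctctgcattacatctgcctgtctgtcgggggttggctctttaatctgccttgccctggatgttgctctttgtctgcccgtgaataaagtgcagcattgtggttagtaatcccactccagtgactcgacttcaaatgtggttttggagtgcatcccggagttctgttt
Tgfbr1, chr4:47352972-47353221, plus strand: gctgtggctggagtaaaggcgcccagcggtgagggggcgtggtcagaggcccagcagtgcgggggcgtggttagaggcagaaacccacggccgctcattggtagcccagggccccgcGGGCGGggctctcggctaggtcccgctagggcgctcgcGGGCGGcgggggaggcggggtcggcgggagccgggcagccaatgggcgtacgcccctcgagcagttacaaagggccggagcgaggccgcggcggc
Tgfbr2, chr9:116175364-116175613, minus strand: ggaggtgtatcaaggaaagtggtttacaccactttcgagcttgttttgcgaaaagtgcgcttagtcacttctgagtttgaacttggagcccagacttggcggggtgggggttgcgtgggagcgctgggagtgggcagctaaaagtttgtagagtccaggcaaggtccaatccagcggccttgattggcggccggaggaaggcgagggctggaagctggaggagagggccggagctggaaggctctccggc

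The Ltbp1 window at the upstream start held a cAMP response element, as did 1.55% of all 32851 windows in the table. The window at the downstream start held none of the 5 motifs, and the Tgfbr2 window held none either. The Tgfbr1 window had 2 GC boxes. Among the windows not shown, those of Smad3, Smad6 and Tgfb1 had 2, 4 and 5 GC boxes, and 32.7% of all windows had at least 1. Tgfb2 had a TATA box, found in 12.4% of all windows. No window of the 7 genes held an AP-1 site, which 6.75% of all windows had. None held a Smad-binding element in the 250 bases before the start, where 0.167% of all windows had 1. When the window was widened to 50 bases past the start, which was done after an element across the start of Smad6 had been seen, Smad6 had 1 and the share of all windows was 0.213%. Base composition also differed. G and C made up 74.8% of the Tgfbr1 window and 58.4% of the Tgfbr2 window, against 56.8% and 50.8% at the upstream and downstream starts of Ltbp1 and a median of 52.4% over all windows. A match says only that the letters are present.

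The comparison of G9a KO with WT asked which levels of the pathway differed after loss of the methyltransferase. Of the 10 genes, 4 were higher in G9a KO (Tgfb3, Ltbp1, Tgfbr2 and Tgfbr3), 1 was lower (Tgfbr1) and 5 were not called (Tgfb1, Tgfb2, Smad3, Smad6 and Smad7). A gene was called at an adjusted p under 0.05 in edgeR's quasi-likelihood test. Of all genes tested, 47.2% were called, 23.6% as higher and 23.6% as lower, so 5 calls in 10 genes is near the background. The groups did not overlap for 5 of the 10 genes, against 43.9% of all genes. In RNA of whole cultures, a change in the share of cells that make a transcript and a change in the RNA per cell cannot be told apart.

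**Figure D1:**
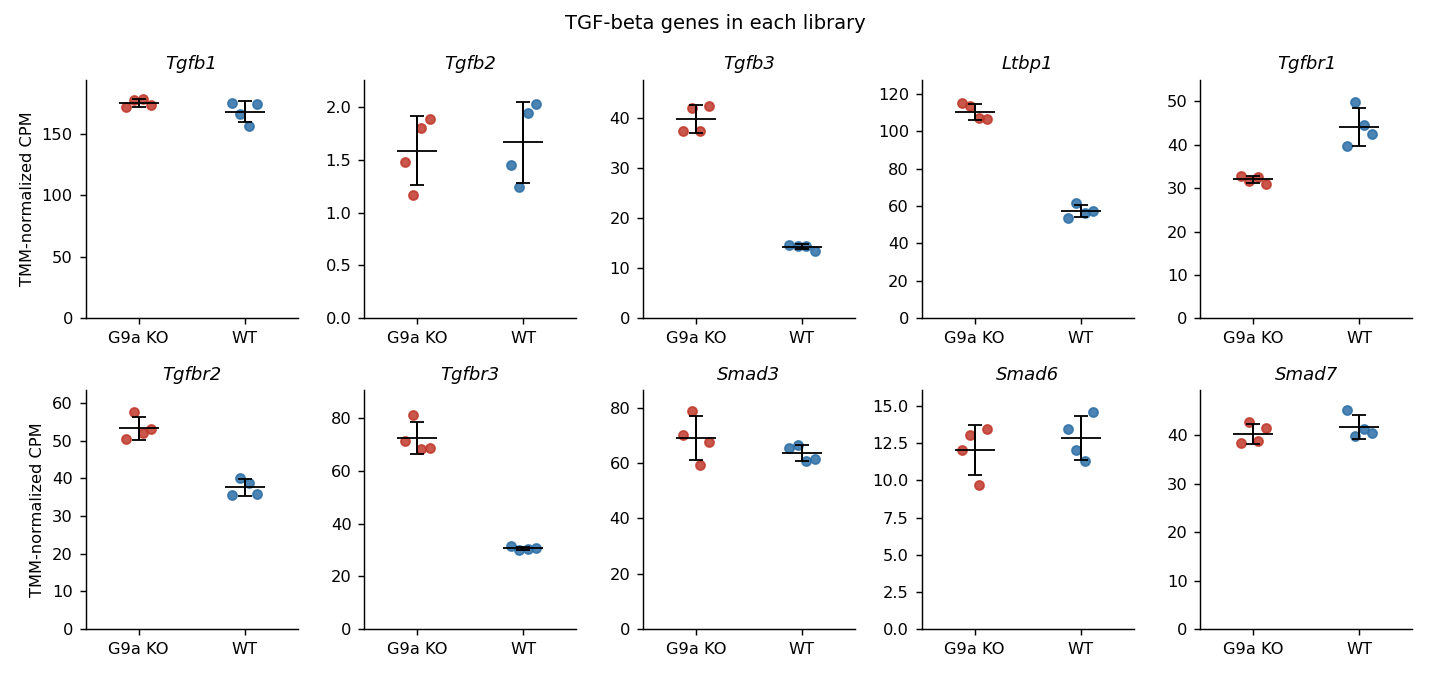
TMM-normalized CPM (vertical axes, each from 0) of the 10 genes, with 1 point per library, G9a KO left of WT, and the mean ± SD in black (n = 4 per group). Tgfb3, Ltbp1, Tgfbr2 and Tgfbr3 lie higher and Tgfbr1 lower in all 4 G9a KO libraries, and the 5 other genes overlap.

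Among the ligands, Tgfb3 stood apart from Tgfb1 and Tgfb2. Tgfb3 (ENSMUSG00000021253, chromosome 12, 86056745 to 86079041, GRCm38) was at 37.4, 42.1, 37.4 and 42.5 CPM in G9a KO libraries, against 14.7, 14.5, 14.5 and 13.5 CPM in WT libraries. The lowest G9a KO library was above the highest WT library. Tgfb3 rose by 1.48 ± 0.07 on the log2 scale (SE over 4 libraries per group; edgeR, adjusted p = 2.40e-09), which is 2.79-fold with a 95% interval of 2.55 to 3.06.

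Tgfb1, the ligand with the most RNA, was at 171.7, 177.5, 178.5 and 173.4 CPM in G9a KO libraries, against 174.8, 165.8, 156.7 and 174.2 CPM in WT libraries. The ranges overlapped, and the log2 fold change of 0.06 ± 0.05 was not called (edgeR, adjusted p = 0.301). Its 95% interval, 0.98 to 1.11-fold, leaves room for a small difference either way. Tgfb1 was called higher under 4 of 19 alternative analyses, with log2 fold changes of up to 0.16.

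Tgfb2 had few counts, between 81 and 135 per library. It was at 1.48, 1.17, 1.80 and 1.89 CPM in G9a KO libraries, against 1.45, 1.24, 1.94 and 2.03 CPM in WT libraries. The values were intermixed, and the interval of its fold change, 0.694 to 1.30, is the widest among the 10 genes (edgeR, adjusted p = 0.828).

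Levels of different genes were compared per length, as TPM (counts over transcript length, scaled to 1e6 per library). In G9a KO libraries Tgfb3 was at 24.0 ± 2.16 TPM beside 167 ± 7.29 TPM for Tgfb1 and 0.67 ± 0.10 TPM for Tgfb2, and in WT libraries it was at 8.19 ± 0.34 TPM beside 154 ± 8.79 and 0.73 ± 0.05 TPM (SD, n = 4 each). Tgfb3 thus made up 12.5% ± 0.79 of the ligand TPM in G9a KO libraries and 5.03% ± 0.34 in WT libraries. Tgfb1 was the main ligand RNA in both groups, with 6.98 ± 0.50 times the TPM of Tgfb3 in G9a KO libraries and 18.9 ± 1.38 times in WT libraries. These values depend on the length used: with the union of exons, Tgfb3 made up 25.1% ± 1.38 of the ligand TPM in G9a KO and 11.2% ± 0.71 in WT libraries, and Tgfb1 had 2.96 ± 0.22 and 7.89 ± 0.57 times its TPM.

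Ltbp1 (ENSMUSG00000001870, chromosome 17, 75005568 to 75392512), which ties latent ligand to the matrix, was at 115.1, 113.3, 107.0 and 106.7 CPM in G9a KO libraries, against 53.8, 61.7, 56.5 and 57.1 CPM in WT libraries. All G9a KO libraries were above all WT libraries. Ltbp1 rose by 0.95 ± 0.05 on the log2 scale (SE over 4 libraries per group; edgeR, adjusted p = 1.63e-08), which is 1.93-fold.

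Ltbp1 has a long form from an upstream start and a short form from a downstream start. Transcripts were summed by start, a grouping chosen after the data had been seen. The 3 transcripts from the downstream start (first bases 75178810 to 75178911) summed to 98.5, 91.8, 101.2 and 83.0 CPM in G9a KO libraries, against 30.002, 49.1, 36.1 and 46.9 CPM in WT libraries. The groups did not overlap, and the log2 fold change was 1.21 ± 0.15 (edgeR over all 23581 starts, adjusted p = 4.40e-04), where 27.3% of starts were called.

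The upstream start (75005568) was at 15.6, 20.6, 3.71 and 24.4 CPM in G9a KO libraries, against 22.8, 11.9, 19.7 and 9.59 CPM in WT libraries. Both groups were widely spread, and the log2 fold change of 0.01 ± 0.51 (edgeR, adjusted p = 0.995) leaves a change of either sign possible. The downstream start held 84.1% ± 7.32 of the Ltbp1 counts in G9a KO libraries and 70.7% ± 12.6 in WT libraries (SD, n = 4 each). That difference in start use was not shown (exact permutation test, two-sided, p = 0.171). The upstream start is the one whose window above carries the cAMP response element.

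**Figure D2:**
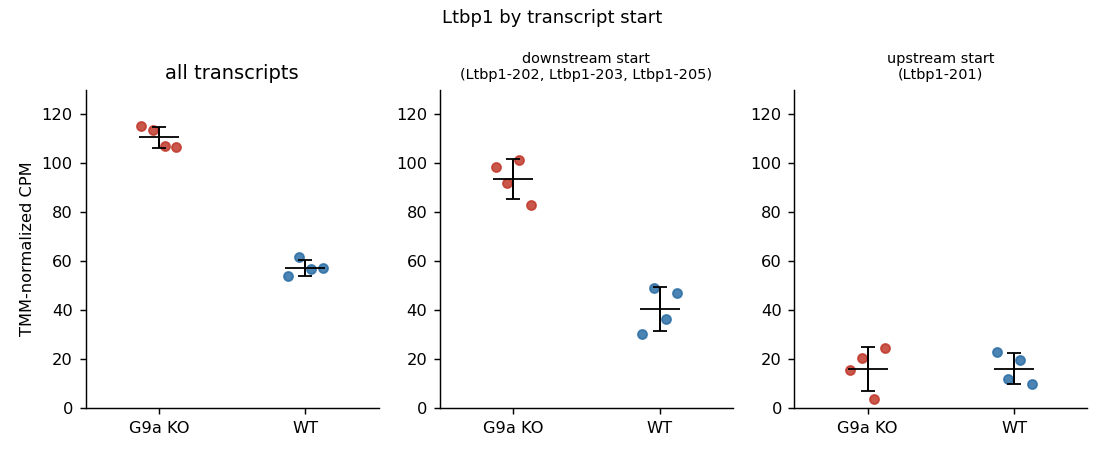
TMM-normalized CPM of Ltbp1 (vertical axes, same scale) for all transcripts, for the 3 transcripts from the downstream start and for the transcript from the upstream start, with 1 point per library, G9a KO left of WT, and mean ± SD in black (n = 4 per group). The downstream start separates the groups and the upstream start does not.

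The 3 receptors differed from each other. Tgfbr3 (ENSMUSG00000029287, chromosome 5, 107106570 to 107289629), the coreceptor, was at 71.4, 81.3, 68.2 and 68.6 CPM in G9a KO libraries, against 31.3, 30.1, 30.3 and 30.6 CPM in WT libraries. The WT libraries were close together and far below every G9a KO library. Tgfbr3 rose by 1.24 ± 0.06 on the log2 scale (SE over 4 libraries per group; edgeR, adjusted p = 5.42e-09).

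Tgfbr2 (ENSMUSG00000032440, chromosome 9, 116084293 to 116175360), the kinase that binds ligand first, was at 50.5, 57.6, 52.1 and 53.1 CPM in G9a KO libraries, against 35.6, 40.1, 38.9 and 35.9 CPM in WT libraries. The lowest G9a KO library was above the highest WT library. Tgfbr2 rose by 0.50 ± 0.06 on the log2 scale (SE over 4 libraries per group; edgeR, adjusted p = 1.50e-05).

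Tgfbr1 (ENSMUSG00000007613, chromosome 4, 47353222 to 47414931), the kinase that phosphorylates Smads, was at 32.8, 31.6, 32.7 and 30.9 CPM in G9a KO libraries, against 39.7, 49.98, 44.6 and 42.5 CPM in WT libraries. Here every G9a KO library was below every WT library. Tgfbr1 fell by 0.46 on the log2 scale (log2 fold change -0.46 ± 0.07, SE over 4 libraries per group; edgeR, adjusted p = 1.00e-04).

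The make-up of the receptor RNA differed between groups, given here as a description. Of the summed receptor TPM, Tgfbr1 held 20.2% ± 0.93 in G9a KO libraries and 38.0% ± 2.35 in WT libraries, while Tgfbr3 held 41.8% ± 1.76 and 24.8% ± 1.63 (SD, n = 4 each). Tgfbr2 held 38.0% ± 1.503 in G9a KO libraries and 37.2% ± 1.25 in WT libraries. Tgfbr3 had 2.07 ± 0.17 times the TPM of Tgfbr1 in G9a KO libraries and 0.655 ± 0.08 times in WT libraries.

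None of the 3 Smads was called. Smad3, which carries the signal to the nucleus, was at 70.3, 79.0, 59.4 and 67.7 CPM in G9a KO libraries, against 65.6, 66.5, 60.7 and 61.7 CPM in WT libraries. G9a KO libraries spanned a wider range that took in the WT values (log2 fold change 0.12 ± 0.07; edgeR, adjusted p = 0.216). Without replicate 3 of G9a KO, its lowest library, Smad3 was called higher (log2 fold change 0.19; edgeR, adjusted p = 0.0287).

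Smad6, the inhibitory Smad best known for BMP signals, was at 12.1, 13.1, 9.69 and 13.4 CPM in G9a KO libraries, against 13.4, 12.05, 11.3 and 14.6 CPM in WT libraries. Smad7, which also recruits ubiquitin ligases to Tgfbr1, was at 38.4, 42.7, 38.9 and 41.5 CPM in G9a KO libraries, against 45.3, 39.8, 41.3 and 40.5 CPM in WT libraries. Both sets of values overlapped. The 95% intervals were 0.805 to 1.098-fold for Smad6 and 0.892 to 1.05-fold for Smad7 (edgeR, adjusted p = 0.564 for each), so a moderate decrease in Smad6 lies inside its interval.

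The order of the levels per length differed between groups in its middle. Tgfb1 was first and Tgfb2 last in both. In G9a KO libraries Ltbp1 (44.8 ± 2.66 TPM) came next, followed by Smad3 (28.1 ± 4.29), Tgfbr3 (24.5 ± 2.79), Tgfb3 (24.0 ± 2.16), Tgfbr2 (22.2 ± 1.73) and Smad7 (19.5 ± 1.65), whose ranges overlapped from each gene to the next from Smad3 on. Tgfbr1 (11.8 ± 0.39) and Smad6 (8.60 ± 1.13) followed without overlap. In WT libraries the order after Tgfb1 was Smad3 (24.7 ± 1.33 TPM), Ltbp1 (21.3 ± 1.73), Smad7 (19.2 ± 1.29), Tgfbr1 (15.3 ± 1.62), Tgfbr2 (14.9 ± 0.84), Tgfbr3 (9.93 ± 0.28), Smad6 (8.64 ± 1.06) and Tgfb3 (8.19 ± 0.34). Neighbours overlapped between Ltbp1 and Smad7, between Tgfbr1 and Tgfbr2, and from Tgfbr3 through Tgfb3. With the union of exons as the length, Ltbp1 was in place 5 in both groups.

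Counts of single Ltbp1 transcripts spread more than their sum. The coefficient of variation of the long Ltbp1 form was 56.0% in G9a KO and 39.1% in WT libraries, and that of the gene sum was 3.92% and 5.72%. Tgfb3-201 is the only Tgfb3 transcript listed, so it and the gene sum hold the same counts. Its coefficient of variation was 7.11% in G9a KO and 3.53% in WT libraries. That of the gene sum was 7.16% and 3.55%, nearly equal by construction. Of 43 transcripts of the 10 genes, 19 could be tested, 4 were higher in G9a KO, 2 were lower and 13 were not called, where 11.3% of all transcripts tested were called, 6.25% as higher and 5.02% as lower. Those higher were Tgfb3-201, Tgfbr3-201, Ltbp1-202 and Ltbp1-206, a retained-intron transcript that was called in 2 of 8 analyses with a library left out. Ltbp1-206 also has a start of its own, and in the test over starts it was called (log2 fold change 2.24 ± 0.52; edgeR, adjusted p = 0.0114), as it was with each library left out. That start holds Ltbp1-206 alone, so the same counts were tested among 23581 starts in place of 37987 transcripts. The transcripts called lower were Tgfbr1-201 and Tgfb1-204. The retained-intron transcript Tgfb1-204 was at 2.91, 3.65, 3.62 and 3.52 CPM in G9a KO libraries, against 9.39, 6.75, 6.97 and 7.76 CPM in WT libraries. Tgfb1-204 did not overlap between groups and fell by 1.17 on the log2 scale (log2 fold change -1.17 ± 0.17, SE, n = 4 per group; edgeR over all transcripts, adjusted p = 0.00428). With replicate number as a block, Tgfb1-204, Tgfbr1-201 and Ltbp1-206 were not called (adjusted p = 0.0621, 0.0886 and 0.0579), at log2 fold changes of -1.16, -0.44 and 2.15. The starts that hold them were called under the block (edgeR, adjusted p = 0.00990, 0.0135 and 0.0114). Those starts hold wholly or nearly the same counts, tested among fewer starts than transcripts, so these calls are not separate support. Without the block, the start of Tgfb1-201 was called higher too (log2 fold change 0.13 ± 0.04; edgeR, adjusted p = 0.0450). It was called in 0 of 8 analyses with a library left out. The coding transcript Tgfb1-201 held 97.8% ± 0.29 of Tgfb1 counts in G9a KO libraries and 94.8% ± 0.64 in WT libraries (two-sided exact permutation test, p = 0.0286, which is the smallest that 4 against 4 can give; 0.171 after adjustment over 12 shares).

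Tgfb3 and Tgfbr3 lie in stretches of the genome whose genes shifted together. For the 15 expressed genes on each side of Tgfb3, the median log2 fold change was 0.43, and 21 of these 30 neighbours were higher in G9a KO and 2 lower. Tgfb3 lay above 29 of the 30. With the neighbour median taken out, its log2 fold change was 1.04 (edgeR, adjusted p = 5.95e-08), on a scale where 43.5% of all genes were called, 25.1% as higher and 18.4% as lower. The neighbours were not uniform (quartiles 0.13 and 0.75), and those after Tgfb3 lay higher as a group than those before it. A median over both sides may therefore take out less than the shift on the higher side.

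The nearest expressed genes before Tgfb3 were Jdp2, Erg28 and Ttll5, which rose by 0.72 ± 0.07, 0.49 ± 0.05 and 0.95 ± 0.06 on the log2 scale. After it lay Ift43 and Gpatch2l, which rose by 1.17 ± 0.10 and 0.54 ± 0.08, and Irf2bpl, which was not called (0.08 ± 0.06). Thus 5 of the 6 nearest genes were higher in G9a KO.

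Around Tgfbr3 the neighbour median was 0.31, with 20 of 30 neighbours higher and 5 lower, and Tgfbr3 lay above 28. Its log2 fold change with that median taken out was 0.93 (edgeR, adjusted p = 7.54e-08). The nearest genes were less uniform: Cdc7 and Evi5 rose by 0.35 ± 0.07 and 0.27 ± 0.05, Rpap2 fell by 0.20 on the log2 scale, and Zfp326, Zfp644 and Glmn were not called (0.12 ± 0.05, 0.11 ± 0.08 and 0.03 ± 0.11).

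The other 3 called genes had neighbour medians under 0.2 in size. The median was -0.02 around Ltbp1, 0.01 around Tgfbr1 and -0.15 around Tgfbr2, and their log2 fold changes with the median taken out were 0.97, -0.48 and 0.65. Tgfbr2 lay above all 30 of its neighbours, of which 14 were lower in G9a KO. What moves these stretches was not tested.

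**Figure D3:**
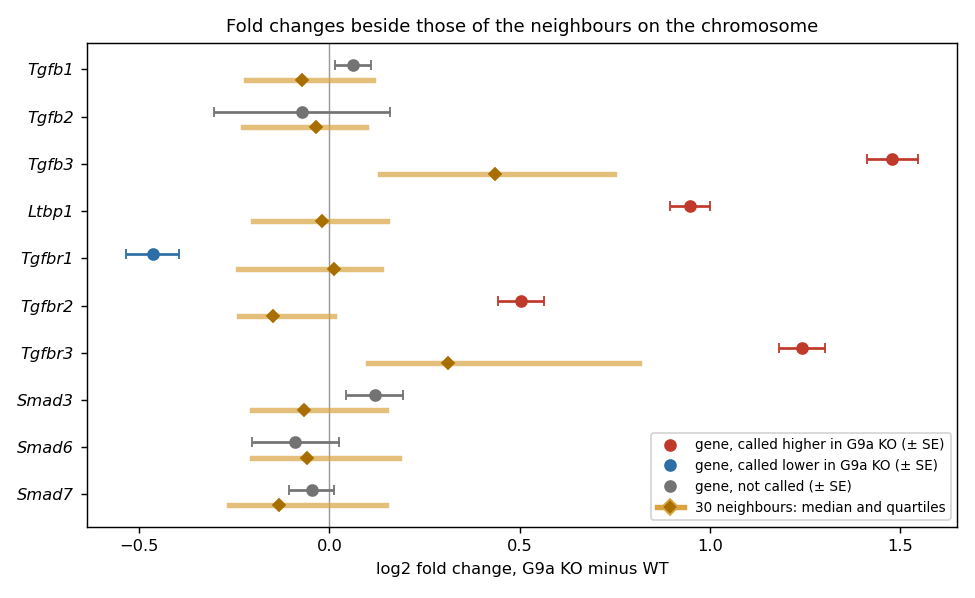
Log2 fold change (G9a KO minus WT, horizontal axis) of each gene as a circle with its SE, red where called higher, blue where called lower and grey where not called, above the median (diamond) and quartiles (bar) of its 30 nearest expressed genes. Neighbour medians depart from 0 most at Tgfb3 (0.43) and Tgfbr3 (0.31), and both genes lie beyond the quartiles of their neighbours.

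**Figure D4:**
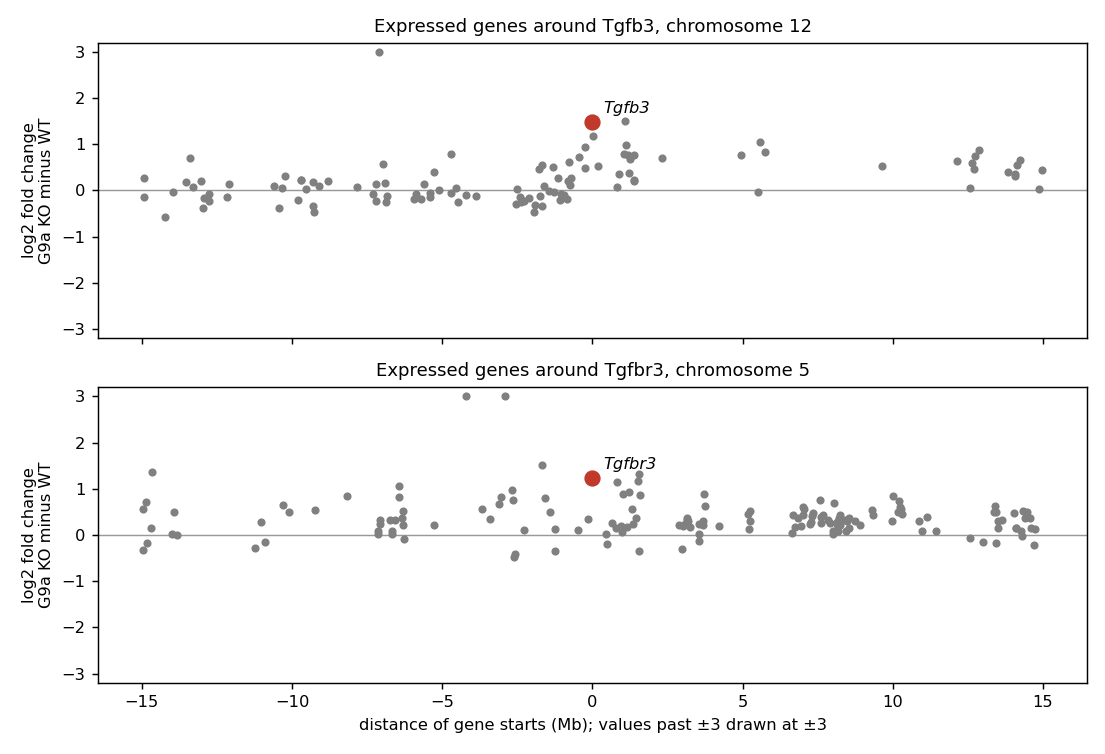
Log2 fold change (vertical axis, values past 3 drawn at 3) of expressed genes against the distance of their starts from Tgfb3 (top) and Tgfbr3 (bottom) in Mb, with those genes as large red points. Many genes near and to the right of Tgfb3, and on both sides of Tgfbr3, lie above 0.

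By the distance between log2 CPM values centred on WT over the 8 libraries, the genes most like Tgfb3, the gene with the highest fold change of the 10, were Nrp2, Man2b2 and Lgmn (distances 0.219, 0.236 and 0.242). Nrp2, a neuropilin coreceptor, averaged 181 CPM in G9a KO and 69.4 CPM in WT libraries. The genes most like Tgfbr1, which had the lowest, were Gdap2, Fbxo11 and Ier3 (distances 0.0983, 0.113 and 0.132). Their log2 fold changes were -0.49, -0.47 and -0.45.

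Other genes of the pathway were counted in 8 lists written from textbook roles, with earlier results of these data known. Of 191 genes, 142 were tested, 45 rose, 47 fell and 50 were not called, and their median log2 fold change was -0.04, beside 0.00 over all genes tested. With the median of 15 neighbours on each side taken out, 53 were higher and 34 lower. That step also moved all genes tested, from 23.6% higher and 23.6% lower to 25.1% and 18.4%. The balance of directions thus depends on that step, in the lists and over all genes. These shares belong beside the counts of each list below. In these lists 64.8% of tested genes were called, beside 47.2% of all genes, and that difference was not tested.

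Of 15 tested genes that store and release the ligand, 9 rose, 4 fell and 2 were not called (median log2 fold change 0.24), and with the neighbour median taken out 10 were higher and 1 lower. Over all genes tested 23.6% rose and 23.6% fell (25.1% and 18.4% with the neighbour median taken out), and no list was tested against them. Fbn1, the fibrillin to which latency proteins attach, averaged 9.15 ± 1.12 CPM in G9a KO and 2.41 ± 0.31 CPM in WT libraries (SD, n = 4 each) and rose by 1.93 ± 0.13 on the log2 scale (edgeR, adjusted p = 8.93e-08). Plau, the urokinase protease, rose by 0.46 ± 0.05. Mmp2, a gelatinase, averaged 0.172 ± 0.08 CPM in G9a KO and 2.13 ± 0.31 CPM in WT libraries, a log2 fold change of -3.59 ± 0.33. Thbs1, an activator of latent ligand, had a log2 fold change of -0.77 ± 0.10, and -0.17 with its chromosome 2 neighbours taken out, where it was not called. The other Ltbp genes, Ltbp2, Ltbp3 and Ltbp4, named after their values were seen, all rose, by 2.99 ± 0.41, 0.23 ± 0.06 and 0.24 ± 0.06. Ltbp2 had little RNA, with 2.005 ± 0.57 CPM in G9a KO and 0.252 ± 0.15 CPM in WT libraries (SD, n = 4 each). The Ltbp3 groups overlapped, with a lowest G9a KO library of 126.03 CPM and a highest WT library of 126.24 CPM. Ltbp3 was at 0.47 with the neighbour median taken out.

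Among 9 other ligands tested, 3 rose, 2 fell and 4 were not called (55.6% called, beside 47.2% of all genes). Bmp7 averaged 0.110 ± 0.09 CPM in G9a KO and 5.39 ± 0.39 CPM in WT libraries. Gdf15, a stress-induced ligand, had a log2 fold change of -1.28 ± 0.16. Gdf11 and Bmp2 rose by 0.62 ± 0.07 and 0.93 ± 0.12.

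Of 15 other receptors, 2 rose, 3 fell and 10 were not called (33.3% called, beside 47.2% of all genes). The neuropilins Nrp1 and Nrp2, coreceptors that also bind VEGF, were those that rose, by 1.88 ± 0.08 and 1.39 ± 0.06. The activin receptors Acvr2a and Acvr1, both on chromosome 2, had log2 fold changes of -0.97 ± 0.07 and -0.48 ± 0.05. With the neighbour median taken out these were -0.38 and 0.03, and Acvr1 was not called.

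Of 20 other Smads and partners tested, 2 rose, 11 fell and 7 were not called (median -0.27). With the neighbour median taken out, 4 were higher and 9 lower. The share called was 65%, beside 47.2% of all genes, of which 23.6% rose and 23.6% fell. The BMP Smads Smad1 and Smad5 had log2 fold changes of -0.50 ± 0.07 and -0.32 ± 0.05. The partners Atf3 and Sp1 had -1.60 ± 0.19 and -0.47 ± 0.06. Smad2 and Smad4, the partners of Smad3, named after their values were seen, had -0.23 ± 0.05 and -0.31 ± 0.05 (edgeR, adjusted p = 0.00152 and 2.85e-04). With the neighbour median taken out they were at -0.10 and -0.21, and Smad2 was not called (edgeR, adjusted p = 0.114).

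Of 28 brakes and adaptors inside the cell, 6 rose, 12 fell and 10 were not called (64.3% called, beside 47.2% of all genes). With the neighbour median taken out 5 were higher and 8 lower. Fkbp1a, which binds Tgfbr1 and keeps it inactive, averaged 369 ± 13.5 CPM in G9a KO and 602 ± 16.5 CPM in WT libraries. Fkbp1a and the corepressor Tgif2, both on chromosome 2, fell, with log2 fold changes of -0.71 ± 0.04 and -0.96 ± 0.06; taking out the neighbour median left -0.14 and -0.35. Ldlrad4, an inhibitor of Smad activation, rose by 2.76 ± 0.20, and the adaptor Dab2 rose by 0.72 ± 0.06 (0.41 with the neighbour median taken out).

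Among 12 extracellular antagonists, 6 rose, 1 fell and 5 were not called (median 0.55). The share called was 58.3%, beside 47.2% of all genes. The proteases Htra3 and Htra1 rose by 1.37 ± 0.08 and 0.84 ± 0.05, Vasn, which binds TGF-beta, by 0.61 ± 0.07, and the BMP binder Twsg1 by 0.49 ± 0.05.

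Of 38 tested target genes of TGF-beta, 15 rose, 11 fell and 12 were not called (median 0.04). The share called was 68.4%, beside 47.2% of all genes. With the neighbour median taken out 20 targets were higher and 6 lower, where 25.1% of all genes were higher and 18.4% lower. Col3a1, a fibrillar collagen, averaged 429 ± 12.8 CPM in G9a KO and 107 ± 4.83 CPM in WT libraries and rose by 2.004 ± 0.05 on the log2 scale. Plod2, which modifies collagen, rose by 0.68 ± 0.04. Some targets, named after their values were seen, fell. The feedback inhibitors Skil and Pmepa1 had log2 fold changes of -0.24 ± 0.07 and -0.58 ± 0.09, and the cell cycle inhibitor Cdkn1a had -0.76 ± 0.09. Ccn2 was not called (-0.04 ± 0.07). With the neighbour median taken out neither Skil (-0.15; edgeR, adjusted p = 0.0760) nor Pmepa1 (0.06; adjusted p = 0.658) was called.

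Of 13 BMP targets, 4 rose, 6 fell and 3 were not called (76.9% called, beside 47.2% of all genes), with a median of -0.11. With the neighbour median taken out 5 were higher and 5 lower, where 25.1% of all genes were higher and 18.4% lower. The 4 that rose were Msx1 (0.66 ± 0.05, or 0.30 with the neighbour median taken out), Atoh8 (1.06 ± 0.10), Id2 (0.56 ± 0.07) and Id3 (0.32 ± 0.05). More of the list fell than rose.

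Collagen genes in the target list are also markers of fibroblasts and stellate cells. That marker list of 9 genes summed to 431 to 463 CPM in G9a KO and 108 to 117 CPM in WT libraries. Of its 6 tested genes, 5 were higher in G9a KO, beside 23.6% of all genes, and Lrat and Lum are listed at 0. Col3a1 made up most of the sum. The part of other cells in these results was not tested.

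**Figure D5:**
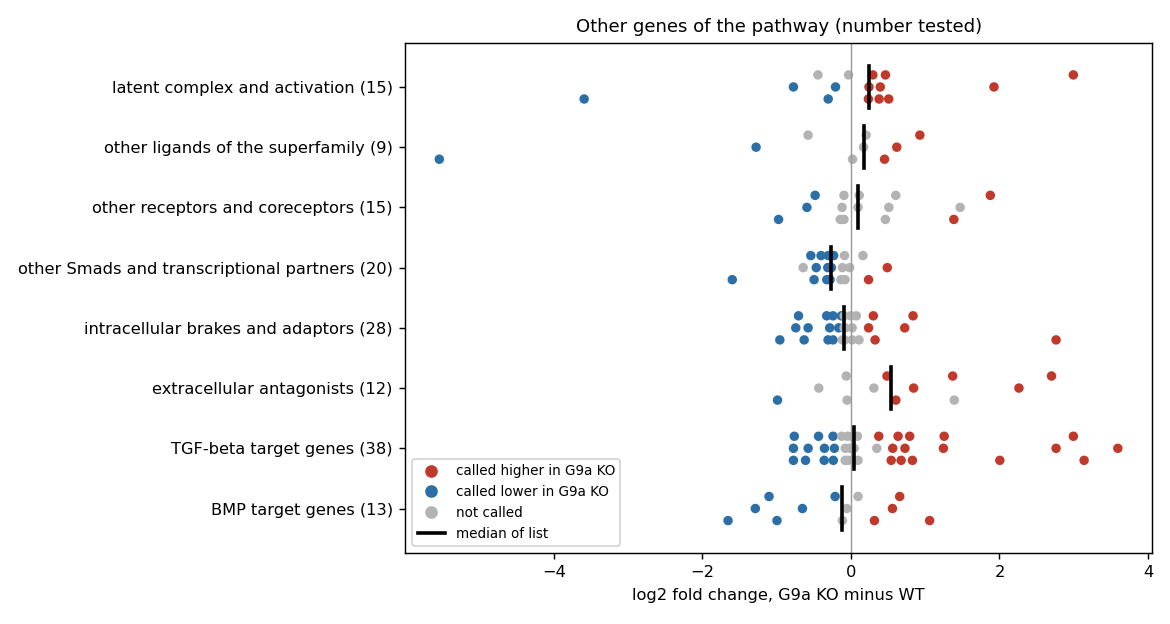
Log2 fold change (G9a KO minus WT, horizontal axis) of the tested genes of 8 pathway lists, 1 point per gene, red where called higher in G9a KO, blue where called lower and grey where not called, with the list median as a black bar. Medians run from -0.27 for Smads and partners to 0.55 for extracellular antagonists.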

How the data were processed

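Per the labels' protocols, TRIzol RNA was made into libraries with a SMARTer poly-A kit. FastQC, Trimmomatic and HISAT2, with GRCm38.p6, are listed in the submitters' processing notes. The sources used here give neither the counter nor its use of strand, so overlapping and antisense genes cannot be told apart. The deposited table gives, for each transcript, an estimated count that is a whole number and was not normalized, judging by its values. Of 115220 transcripts, 114332 (99.2%) matched GENCODE M21 (GRCm38). The 888 others held 0.148% to 0.17% of a library's counts and were left out. The design had assumed counts per gene, so transcript counts were summed. No rounding was needed.

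G9a KO and WT were compared with edgeR 4.0.16 in R 4.3.3 (quasi-likelihood F test, TMM, filterByExpr, genotype as the only term, two-sided, Benjamini-Hochberg adjustment over all genes tested). SE is the size of the log2 fold change over the square root of F. The 95% intervals use that SE with a normal quantile. With 4 libraries per group they are narrower than a t quantile would give. TMM-normalized CPM and TPM, from each transcript's length, were computed here. No limit is given for genes listed at 0, since a 0 can be a failed estimate, and intervals reflect these libraries only. Within groups, pairs of libraries were further apart than sampling noise (chi-square over degrees of freedom of 10.3 to 43.2). Alternatives were DESeq2 1.42.0, limma-voom 3.58.1, 3 scalings, 2 filters, coding transcripts alone, a replicate block, each library left out, and the median log2 fold change of 15 or 50 expressed genes (mean of 5 CPM or more) on each side taken out. The code was tested on simulated data.

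The genes named are the 10 genes, Ehmt2, up to 4 genes of each list with the lowest p, 3 genes nearest in pattern to the genes with the highest and lowest fold change, and 3 expressed genes on each side where the neighbour median passes 0.2. Of these, 1 gene is not reported here. Members and lists were chosen with earlier results of these data known. The motifs and the grouping by start were chosen after the data had been seen.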

Additional observations from a re-analysis of the deposited data

Results flagged for a closer look

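Among 44 groups of 4 libraries looked at, 1 had a library far from the others. The share of Smad7 counts in its main transcript, Smad7-201, was 99.93%, 99.29%, 99.91% and 99.97% in the G9a KO libraries, and the gap below the others of the lowest, replicate 2, was 0.922 of the whole range, past Dixon's 95% limit. Chance flags about 1 group in 20.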

How the results depend on the processing

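The 5 called genes kept their direction and call under all 19 alternatives, with log2 fold changes of 1.04 to 1.56 for Tgfb3, 0.92 to 1.03 for Ltbp1, 0.93 to 1.32 for Tgfbr3, 0.47 to 0.65 for Tgfbr2 and -0.51 to -0.38 for Tgfbr1. Genes called over the whole table numbered 5786 to 7775, and 5 to 7 of the 10. The numbers tested differed. At a mean of 5 CPM or more, 5786 of 9978 genes were called, and Tgfb2 was not among those tested. With all genes of at least 1 read, 7017 of 25749 were called, and with DESeq2 7775 of 15840. With library sizes alone, 4543 genes were higher and 2742 lower, against 3742 and 3734, and the median of all genes was 0.08. Tgfb1 was called with library sizes alone (0.14), coding transcripts alone (0.12) and 15 or 50 neighbours taken out (0.13 and 0.16), and Smad3 with library sizes alone (0.20, edgeR, adjusted p = 0.0496). Of the genes that were not called, Tgfb1 and Smad3 kept their sign under all 19 alternatives, while the signs of Tgfb2, Smad6 and Smad7 were not stable. Smad7 was at 0.0110 with upper-quartile factors, 0.0330 with library sizes alone, and 0.0842 and 0.0463 with 15 or 50 neighbours taken out, and Tgfb2 was at 0.00579 with library sizes alone. With a library left out, Tgfb2 ranged from -0.187 to 0.0537 and Smad6 from -0.149 to 0.00717. Signs also varied for the G9a KO minus WT difference in percentage points of the share of Smad7-201 (-0.0365 to 0.211), Smad6-201 (-0.302 to 0.0910), Tgfb2-201 (-0.282 to 1.65), Tgfbr2-201 (-4.47 to 3.16) and Tgfbr2-202 (-3.16 to 4.47). Transcripts called were 4284 of 37987 tested, against 1842 with a replicate block. Starts called were 6441 of 23581 tested. Same-numbered libraries showed little shared deviation (correlations -0.02 to 0.07). With so few libraries this does not settle whether the numbers pair them, and the labels do not say. With the replicate block 7255 of 15840 genes, 5 of the 10 and 91 of 142 pathway genes were called. The causes were not tested. Tgfb2 had the fewest counts, 81 to 135 per library.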
